A study of Mus musculus with 4 samples.

Results

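Metallothioneins and the genes that move zinc, iron and heme were examined in cultured primary mouse hepatocytes that lack the mitochondrial fission protein Drp1. The group holds 10 genes, chosen by name for their known roles, which are Mt1, Mt2, Slc30a1, Slc39a14, Tfrc, Trf, Fth1, Slc40a1, Hamp and Hpx. They are 10 of 20616 gene names with a probe well above background on at least 1 array, out of 37074 gene names on the array. All 10 were well above background on each of the 4 arrays.

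Gene expression was read on 4 one-color arrays, with 1 array for each of 4 groups of C57BL/6 hepatocytes. Control and Drp1LiKO hepatocytes were each cultured without added fatty acid or with the saturated fatty acid palmitate at 200 μM. The Drp1LiKO genotype is Alb-Cre Tg/+ Drp1flox/flox, in which Cre under the albumin promoter deletes floxed Dnm1l, the gene of Drp1, in liver. Controls were described as wild-type in the source labels, although the title of the palmitate-treated control names Drp1flox. The methods describe controls as male Drp1flox/flox littermates without Cre, so that all cells carried the floxed allele by that account. The cells were pelleted at low speed after collagenase perfusion, cultured in high-glucose medium with insulin and serum, and harvested 24 h after seeding. Age is not given in the sources used here, and the time on palmitate is not stated for the arrays. According to its label, the untreated control array shares its raw data with a sample deposited elsewhere. With 1 array per group, variation among animals or cultures was not measured, and no p-value was computed for a pair of arrays.

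Metallothioneins are small cysteine-rich proteins that bind zinc, copper and cadmium, and their genes are switched on by the zinc-sensing factor MTF-1 through metal response elements. The liver makes the plasma iron carrier transferrin, stores iron in ferritin and secretes hepcidin, the peptide hormone that causes the iron exporter ferroportin to be degraded and so lowers the release of iron into blood. Hepcidin transcription is known to respond to bone morphogenetic protein (BMP) signals that report iron stores and to interleukin 6 acting through STAT3. Hemopexin, also a product of hepatocytes, carries free heme to the liver for breakdown.

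Promoter sequence is shown for Mt1, Mt2 and Hamp, the genes past 1.5-fold between the genotypes in at least 1 condition, and for Slc30a1, a textbook target of MTF-1. Each line gives the 250 bases before the RefSeq start on GRCm38.p6, 5′ to 3′ on the gene's own strand. Capitals in the first 3 mark the core of the metal response element, searched on both strands as TGCGCNC or TGCACNC. Capitals in Hamp mark GGCGCC, the core of a BMP response element, followed by the 9-base STAT element TTCNNNGAA.
Mt1, chr8:94178839-94179088, plus strand: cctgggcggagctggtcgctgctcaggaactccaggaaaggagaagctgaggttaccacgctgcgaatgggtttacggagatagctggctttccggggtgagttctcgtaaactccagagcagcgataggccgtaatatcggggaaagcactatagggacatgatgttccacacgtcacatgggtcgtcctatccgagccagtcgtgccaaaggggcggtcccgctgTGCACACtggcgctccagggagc
Mt2, chr8:94172368-94172617, plus strand: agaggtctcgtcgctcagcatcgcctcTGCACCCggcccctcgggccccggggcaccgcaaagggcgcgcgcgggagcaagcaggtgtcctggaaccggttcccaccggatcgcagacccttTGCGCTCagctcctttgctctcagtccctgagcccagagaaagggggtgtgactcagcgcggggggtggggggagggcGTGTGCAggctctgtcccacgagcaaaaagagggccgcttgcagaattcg
Slc30a1, chr1:191906531-191906780, plus strand: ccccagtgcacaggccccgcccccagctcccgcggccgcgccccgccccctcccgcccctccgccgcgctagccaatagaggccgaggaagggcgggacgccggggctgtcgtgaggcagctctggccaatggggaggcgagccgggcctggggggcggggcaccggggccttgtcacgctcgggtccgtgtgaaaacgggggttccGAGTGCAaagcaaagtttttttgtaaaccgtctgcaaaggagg
Hamp, chr7:30944030-30944279, minus strand: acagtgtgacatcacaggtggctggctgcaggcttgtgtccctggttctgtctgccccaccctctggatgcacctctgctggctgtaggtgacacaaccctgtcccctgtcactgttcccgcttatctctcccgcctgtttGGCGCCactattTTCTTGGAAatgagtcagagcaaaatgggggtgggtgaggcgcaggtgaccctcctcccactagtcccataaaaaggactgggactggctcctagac

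At least 1 metal response core was found in 21.4% of 32851 promoter windows of this length, and 3 or more in 1.26%. The Mt2 window held 3 cores, at 223 to 217, 128 to 122 and 50 to 44 bases before the start. Mt1 held 1 core, at 23 to 17 bases, and Slc30a1 held 1, at 43 to 37 bases. Only bases before the annotated start were searched, so any core after it is missed and these are not counts for whole promoters. In the Hamp window the BMP core lay 109 to 104 bases before the start and the STAT element 97 to 89 bases before it. The BMP core occurred in 9.59% of all windows and the STAT element in 7.02%. Metal response and BMP cores were not limited to the genes shown, as 1 of the 2 Tfrc windows held 2 metal response cores and 1 BMP core. Windows were matched for 7 of the 10 genes, and Slc39a14, Slc40a1 and Trf had no entry. A match describes these letters and does not show that a factor bound there.

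Levels are given as normalized log2 intensity, the log2 of the background-subtracted signal minus the 75th percentile of the array, so 0 is the 75th percentile and 1 unit is a doubling. A gene was read from its brightest probe, and a difference of at least 1 log2 unit, or 2-fold, was called a change where at least 1 of the compared arrays had the probe well above background. On each array 44.7% to 51.1% of probes stood well above background, and 0 spots were saturated. Repeat spots of a probe well above background on the same array gave a median SD of at most 0.04 log2 units. For such a typical probe, 2 SDs of a difference between arrays from spot noise alone come to about 0.11. Noisier probes can exceed this. Both untreated arrays lay on 1 slide and both palmitate arrays on another, so genotypes were compared within a slide, whereas palmitate and slide cannot be told apart. Dnm1l, the deleted gene, was lower in Drp1LiKO by log2 differences of −1.35 untreated and −1.42 with palmitate. All 10 hepatocyte markers were well above background on every array, and their summed level, in multiples of the 75th percentile, was 1355 and 1368 on the untreated and 1338 and 1377 on the palmitate arrays, control first. Single hepatocyte markers differed more than this sum, in which Alb and Serpina1a weigh most, and 2 of 10 were at least 2-fold higher in Drp1LiKO in each condition. Markers of macrophages, stellate cells and endothelial cells were mostly higher on the Drp1LiKO arrays. Cholangiocyte markers went both ways, and their summed level, mostly Krt19, was 9.71 and 8.28 untreated and 6.04 and 5.01 with palmitate. Krt19 differed by −0.37 and −0.40, Sox9 by 0.45 and 0.21, and the dim Krt7 by 1.47 and −0.46. Of 11 macrophage markers measured in untreated cells, 10 were at least 2-fold higher in Drp1LiKO, as were 9 of 10 with palmitate, and their summed level was 9.80 and 37.5 untreated and 12.3 and 34.8 with palmitate. The summed stellate cell markers were 1.08 and 11.1, then 1.23 and 13.3, and the endothelial markers 1.43 and 4.12, then 1.44 and 2.86. Timd4 and Cd163 among the macrophage markers and Des among the stellate markers were well above background on no array. In such a culture fewer cells of a type and less RNA per cell cannot be told apart.

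Of the 10 genes, each read from its brightest probe, Hamp alone differed at least 2-fold between the genotypes. It fell in Drp1LiKO in both conditions, by 1.98 log2 units untreated and by 1.11 with palmitate. The background was 14.4% of 19876 genes called in untreated cells and 11.5% of 18890 with palmitate, with 5.6% and 4.27% called lower, so 1 of 10 was a share near that of all genes. At a 1.5-fold limit Mt1 and Hamp passed untreated, 2 of 10 beside 26.7% of all genes, and Mt1, Mt2 and Hamp passed with palmitate, 3 of 10 beside 21.1%. The median log2 difference of the 10 genes was −0.20 untreated and −0.07 with palmitate, beside −0.02 and −0.03 for all genes measured. The sign of the genotype difference was the same in both conditions for 9 of the 10 genes, with Tfrc as the exception, beside 78.5% of 16611 genes well above background on all 4 arrays. This count was 8 with quantile normalization, with the processed table of the authors, or with the array median subtracted.

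**Figure D1:**
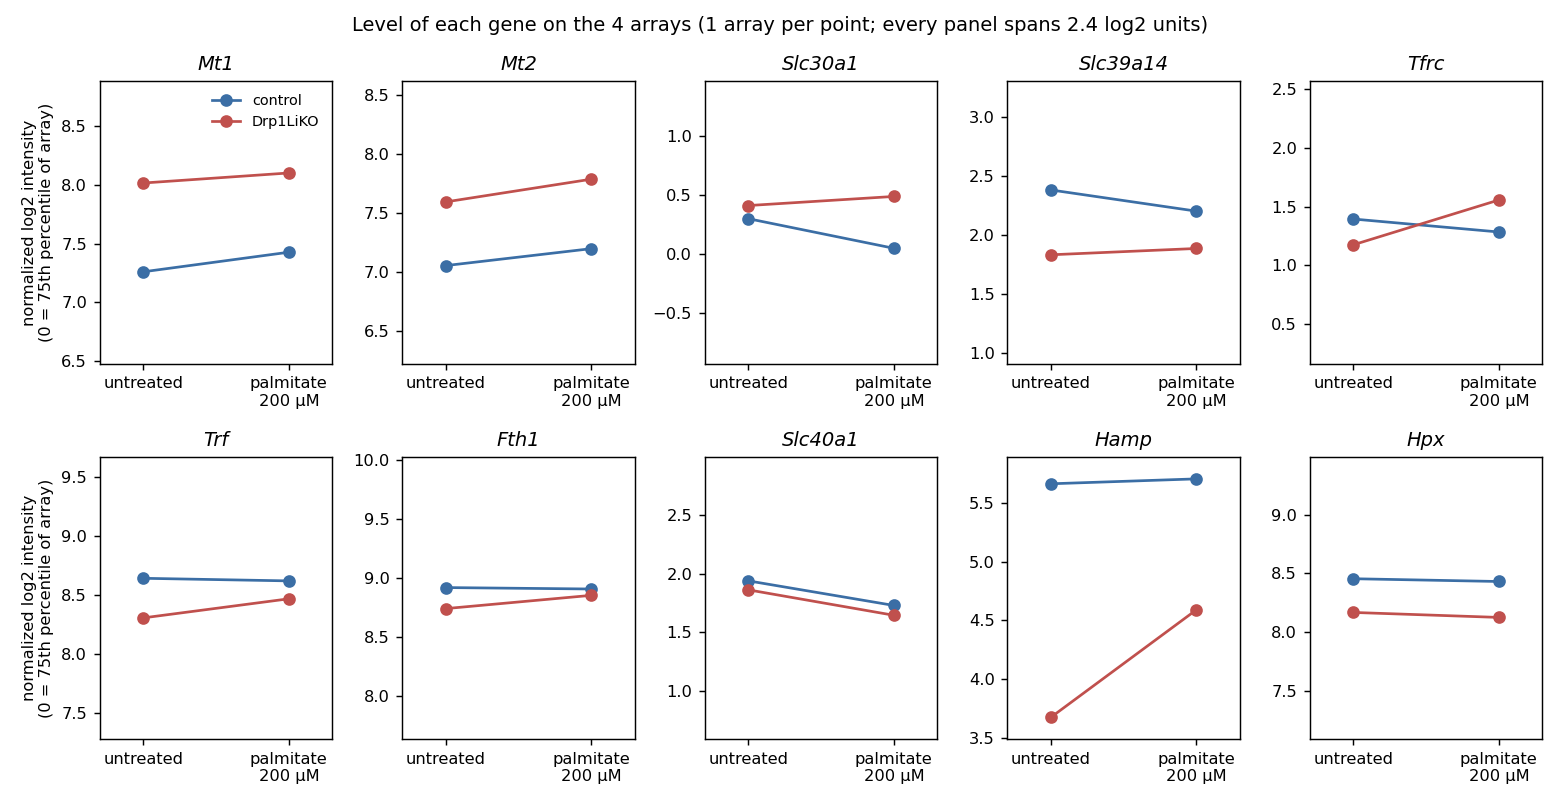
Normalized log2 intensity of the 10 genes (vertical axis, 0 at the 75th percentile of the array) in untreated and palmitate-treated cells (horizontal axis), with 1 array per point, control in blue and Drp1LiKO in red. Every panel spans the same height, so slopes and gaps can be compared between genes. The blue and red lines lie apart on both slides for Mt1, Mt2 and Hamp, cross for Tfrc and nearly coincide for Slc40a1.

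The metallothioneins Mt1 and Mt2, which buffer zinc in the cytoplasm, were higher in Drp1LiKO on both slides, by less than 2-fold on their brightest probes. The Mt1 probe (NM_013602, chromosome 8 at 96704165 to 96704224, mm9) read 7.26 in control and 8.01 in Drp1LiKO untreated, and 7.43 and 8.10 with palmitate. Both Drp1LiKO arrays thus lay above both control arrays. The log2 difference was 0.75 untreated, or 1.69-fold, and 0.67 with palmitate, or 1.59-fold. Among genes measured on both arrays, 7.20% had a larger difference in the upward direction untreated and 6.12% with palmitate. The other Mt1 probe (XM_006530752, at 96703844 to 96703903), a predicted transcript, read −2.17 and −1.57 untreated and −2.62 and −1.45 with palmitate, differences of 0.60 and 1.18. The Mt2 probe (NM_008630, chromosome 8 at 96697371 to 96697430) read 7.05 in control and 7.59 in Drp1LiKO untreated, and 7.20 and 7.79 with palmitate. Its differences were 0.54 and 0.59, or 1.46-fold and 1.51-fold, and its levels too did not overlap between the genotypes. The share of all genes without such overlap was not counted, so here and below non-overlap does not set a gene apart. On brightest probes the levels of Slc30a1, Slc39a14, Trf, Fth1, Hamp and Hpx did not overlap either, whether or not this is said below. Those of Tfrc and Slc40a1 did overlap. The macrophage and stellate markers given above moved with these differences, and their part in them was not tested.

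The remaining metallothioneins did not share this pattern, and Mt4 and Mtf1 are named after their values were seen. Mt3, known best from brain, read −1.47 in control and −2.27 in Drp1LiKO untreated, and −1.19 and −0.98 with palmitate. Its genotype difference was thus −0.80 on the first slide and 0.20 on the second. Mt4, known from stratified epithelia, had no signal well above background in untreated Drp1LiKO cells and read between −4.11 and −3.77 on the other arrays. Its fall in untreated Drp1LiKO is a bound of at least 1.76-fold, set against the lowest signal well above background on the dim array. Mtf1, which encodes the zinc sensor MTF-1, lay between 2.83 and 2.96 on the 4 arrays.

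The zinc transporters among the 10 genes gave no common direction, and neither differed 2-fold between the genotypes. Slc30a1 encodes ZnT1, which exports zinc from the cell. Its probe (NM_009579, chromosome 1 at 193736760 to 193736819) read 0.30 in control and 0.41 in Drp1LiKO untreated, and 0.05 and 0.49 with palmitate. The difference was 0.11 untreated, which turned to −0.07 with the array median subtracted, and 0.44 with palmitate. Slc39a14 encodes ZIP14, an importer of zinc and of iron not bound to transferrin. Its probe (NM_001135151, chromosome 14 at 70703394 to 70703453) read 2.38 in control and 1.83 in Drp1LiKO untreated, and 2.20 and 1.89 with palmitate. Both Drp1LiKO arrays lay below both control arrays, with differences of −0.55 and −0.32. Of the 6 zinc exporters of the Slc30 family measured, 0 differed at least 2-fold between the genotypes in either condition, with a median of −0.08 untreated and −0.16 with palmitate. Of the zinc importers of the Slc39 family, 0 of 11 did so untreated and 1 of 12 with palmitate. That gene was Slc39a12, named here after its values were seen, which stood well above background in palmitate-treated control cells only. It was counted by its measured difference, while its bound is a fall of at least 1.53-fold, under the 2-fold limit.

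Trf and Tfrc encode the carrier and the receptor that bring iron into cells. Trf, transferrin, is secreted by hepatocytes. Its probe (NM_133977, chromosome 9 at 103111207 to 103111266) read 8.64 in control and 8.31 in Drp1LiKO untreated, and 8.62 and 8.47 with palmitate. The differences were −0.34 and −0.15, and the other Trf probe, at 103112826 to 103112885, gave −0.15 and −0.14. Under quantile normalization the brightest probe gave −0.19 and −0.03. Tfrc, transferrin receptor 1, gave no single direction. Its brightest probe (NM_011638, chromosome 16 at 32632255 to 32632314) read 1.39 in control and 1.18 in Drp1LiKO untreated, and 1.28 and 1.56 with palmitate. This is a difference of −0.22 untreated and 0.27 with palmitate. The other probe of the same transcript, at 32620470 to 32620529, read 0.81 and 1.03 untreated and 0.88 and 0.90 with palmitate, differences of 0.22 and 0.02. The probes thus disagreed in sign in untreated cells, and the mean over both was −0.00 there.

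On their brightest probes and scaled to the 75th percentile, the genes of iron storage and export among the 10 differed by at most 0.18 in size between the genotypes. Fth1 encodes the ferritin heavy chain, which oxidizes iron for storage. Its probe (NM_010239, chromosome 19 at 10059485 to 10059544) read 8.92 in control and 8.74 in Drp1LiKO untreated, and 8.91 and 8.85 with palmitate. The difference was −0.18 untreated and −0.05 with palmitate, the latter 0.04 under quantile normalization and the former −0.36 with the array median subtracted. The light chain Ftl1, named after its values were seen, differed by −0.29 and −0.14 on its brightest probe and by 0.01 and 0.03 on the other. Slc40a1 encodes ferroportin, the iron exporter, which macrophages also make. Its probe (NM_016917, chromosome 1 at 45965255 to 45965314) read 1.94 in control and 1.86 in Drp1LiKO untreated, and 1.73 and 1.65 with palmitate. The difference was −0.08 on each slide, within the noise of single spots, while the summed macrophage markers were 9.80 and 37.5 untreated, and their part in this level was not tested. The other Slc40a1 probe (ENSMUST00000186755, at 45980637 to 45980696) was well above background on the untreated Drp1LiKO array only, where it was at least 1.92-fold above the untreated control array. Among 7 genes of iron storage and export measured, 0 differed at least 2-fold, with a median of −0.18 untreated and −0.08 with palmitate.

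Hamp, the gene of hepcidin, had the widest genotype difference of the 10. Its probe (NM_032541, chromosome 7 at 31727490 to 31727549) read 5.66 in control and 3.68 in Drp1LiKO untreated, and 5.70 and 4.59 with palmitate. The control arrays agreed within 0.04, and both Drp1LiKO arrays lay below them. Hamp fell 3.95-fold in untreated Drp1LiKO cells and 2.16-fold with palmitate. Of 17652 genes measured on both untreated arrays, 83 had a larger fall, and of 16784 on the palmitate arrays, 318 did. The fall kept its direction and stayed past 2-fold in every alternative run, between −2.17 and −1.94 untreated and between −1.25 and −1.08 with palmitate. Hamp2, the neighboring hepcidin gene of the mouse, stood well above background in untreated control cells only. Its fall in untreated Drp1LiKO is a bound of at least 1.25-fold. With palmitate neither array was well above background, and the measured difference was 1.08, in the other direction. Beside this, Tat and Ass1 among the hepatocyte markers passed 2-fold upward in the untreated knockout, Ass1 by 1.23, and Tat and Cps1 were higher with palmitate by 1.22 and 1.11, and Cyp2e1 differed by −0.66 and −0.72.

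Known inputs of hepcidin were read beside it, and those other than Il6 and Socs3 are named after their values were seen. On the BMP side, Id1, a target of BMP signals, differed by −0.60 untreated and −0.69 with palmitate. The BMP targets Smad6 and Smad7 differed by 0.03 and 0.12 untreated and by −0.19 and −0.11 with palmitate. A dimmer Smad7 probe, well above background on all 4 arrays, gave 0.80 untreated and −0.03 with palmitate. The ligand Bmp2, made mainly by endothelial cells in liver, was higher by 0.63 and 0.74, and Bmp6 differed by 0.01 and −0.50. The summed endothelial and macrophage markers were also higher in Drp1LiKO, and their part in the Bmp2 and Il6 values was not tested. On the interleukin side, the Il6 probe stayed near background in untreated control cells, and Il6 in untreated Drp1LiKO cells was higher by at least 2.33-fold. With palmitate Il6 read −3.35 in control cells and −0.06 in Drp1LiKO cells, 3.29 apart. Socs3, a target of STAT3, read −0.79 and −0.78 untreated and −0.55 and 0.64 with palmitate, so it differed by 0.02 and 1.20. Stat3 itself was higher in Drp1LiKO by 0.56 and 0.36. Of the 22 genes listed for hepcidin and its regulators, 22 were measured untreated, with 1 higher and 1 lower at least 2-fold and a median of 0.01. With palmitate 20 were measured, with 2 higher and 1 lower and a median of −0.09.

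Hpx, hemopexin, scavenges heme in plasma. Its probe (NM_017371, chromosome 7 at 112740304 to 112740363) read 8.46 in control and 8.17 in Drp1LiKO untreated, and 8.43 and 8.13 with palmitate. The differences were −0.29 and −0.30, with both Drp1LiKO arrays below both control arrays, and −0.14 and −0.18 under quantile normalization. Hp, haptoglobin, the carrier of free hemoglobin, was named after its values were seen and differed by −0.85 and −0.79. Hmox1, the inducible enzyme of heme breakdown, read 3.21 in control and 0.38 in Drp1LiKO untreated, and 4.44 and 4.78 with palmitate. The genotype difference was −2.83 untreated and 0.34 with palmitate. Another Hmox1 probe was well above background on the 2 Drp1LiKO arrays only, at −4.47 and −4.35. Its differences of 1.06 and 1.05 thus rest on control values too dim to measure. Of the red cell markers, Hba-a1, Hba-a2 and Alas2 were well above background on all 4 arrays and Hbb-b1 and Hbb-b2 on none. The summed level of the list, mostly Alas2, was 2.29 and 2.45 untreated and 1.92 and 2.07 with palmitate. Alas2 differed by 0.16 and 0.21, Hba-a1 by −0.27 and −0.45, and Hba-a2 by −0.36 and −0.49.

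**Figure D2:**
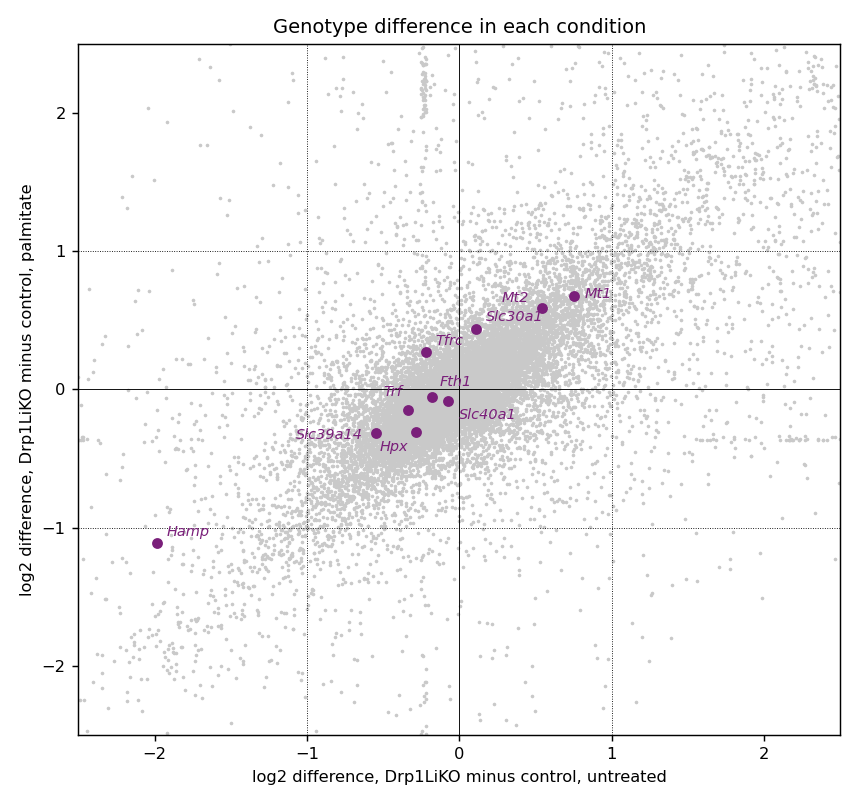
Log2 difference between Drp1LiKO and control in untreated cells (horizontal axis) against that with palmitate (vertical axis), 1 point per gene, with the 10 genes in purple and 20616 genes in grey, of which 1263 lie outside the axes. Dotted lines mark 2-fold. Hamp lies past 2-fold on both axes at −1.98 and −1.11, Mt1 and Mt2 lie inside the dotted lines at the upper right, and the other genes lie closer to 0.

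The genotype effect over all 4 arrays was fitted with limma in an additive model with palmitate, which here is also the slide, as the other term. Only 1 residual degree of freedom remains in this fit, and interaction and noise share it. It called 0.0% of 20616 genes at an adjusted p under 0.05, and 0 of the 10 genes. Since no gene at all was called, the lack of a call for the 10 genes does not show equal levels. At an unadjusted p under 0.05 in this limma fit stood 5366 of all 20616 genes, and 5 of the 10, namely Mt1, Mt2, Slc39a14, Hamp and Hpx. Such a p-value was thus common among all genes and is not a call. The limma estimate for Mt1 was 0.71 ± 0.074 (SE, adjusted p = 0.124), and that for Mt2 was 0.57 ± 0.071 (SE, adjusted p = 0.132). For Hamp it was −1.55 ± 0.30 (SE, limma adjusted p = 0.166). Hpx gave −0.30 ± 0.069 (SE, limma adjusted p = 0.184) and Slc39a14 gave −0.43 ± 0.11 (SE, limma adjusted p = 0.188). The calls changed with the settings of the fit. When the variance was allowed to follow intensity, limma called 25.6% of genes and 6 of the 10, which were Mt1, Mt2, Slc39a14, Trf, Hamp and Hpx. With genes restricted to probes detected on every array it called 15.2% of 16619 genes and 3 of the 10, which were Mt1, Mt2 and Hamp. After normexp background correction it called 7.28% of genes and 2 of the 10, Mt1 and Mt2.

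The response to palmitate was read next, within each genotype and across slides. In control cells 0 of the 10 genes differed at least 2-fold between palmitate and untreated arrays, beside a background of 5.71% of 18772 genes, and 0 differed 1.5-fold, beside 10.5%. The differences lay between −0.25 for Slc30a1 and 0.17 for Mt1. In Drp1LiKO cells 0 of the 10 differed at least 2-fold, beside 7.03% of 19748 genes. At 1.5-fold 1 of the 10 passed, Hamp, beside 14.1% of all genes. It was higher with palmitate by 0.91 in Drp1LiKO, or 1.88-fold, and differed by 0.04 in control. Among genes measured on both Drp1LiKO arrays, 382 of 17853 had a larger upward difference than Hamp. Tfrc differed by 0.38 in Drp1LiKO and −0.11 in control on its brightest probe, and by −0.13 and 0.06 on the other. Mt1 differed by 0.09 in Drp1LiKO and 0.17 in control on its brightest probe, and by 0.12 and −0.46 on the other. Mt2 differed by 0.19 and 0.14. Slc40a1 was lower with palmitate in both genotypes, with differences of −0.22 in Drp1LiKO and −0.21 in control. The median difference of the 10 genes was −0.02 in control and 0.10 in Drp1LiKO, beside 0.01 and 0.00 for all genes.

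**Figure D3:**
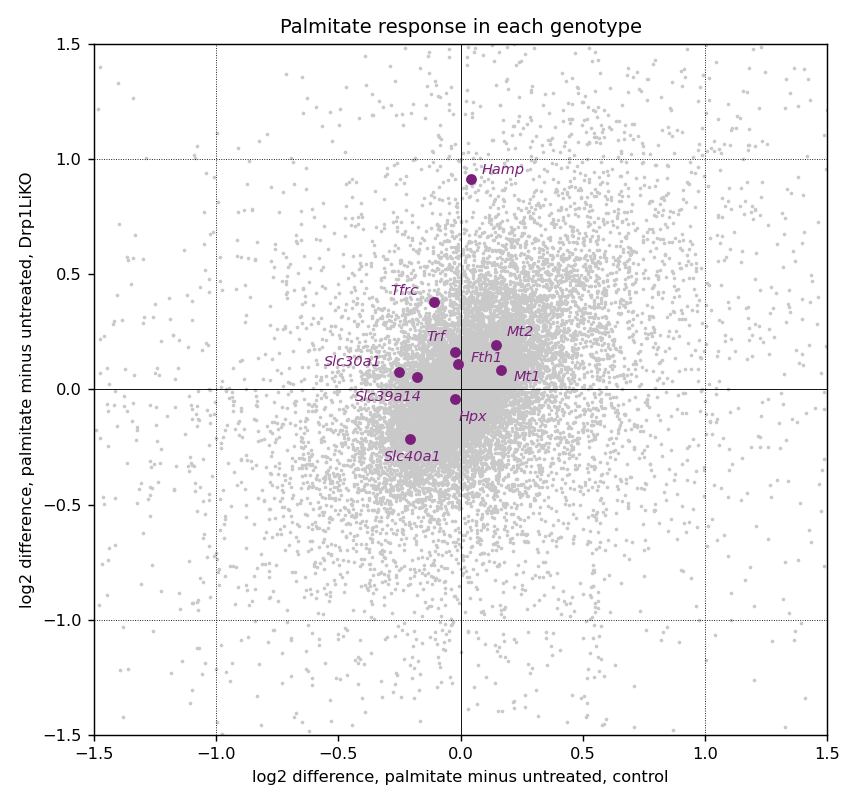
Log2 difference between palmitate and untreated cells in control (horizontal axis) against that in Drp1LiKO (vertical axis), 1 point per gene, with the 10 genes in purple and 20616 genes in grey, of which 1645 lie outside the axes. Dotted lines mark 2-fold. Hamp lies near 0 in control and at 0.91 in Drp1LiKO, and the other 9 genes lie within 0.38 of 0 on both axes.

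The difference between the genotype differences, with palmitate minus untreated, was 0.87 for Hamp, 0.49 for Tfrc and 0.33 for Slc30a1. For the metallothioneins it was −0.08 for Mt1 and 0.05 for Mt2. The median over the 10 genes was 0.15. These values have no residual degree of freedom and no test.

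The wider pathway was read from 10 lists of metal and heme genes, which hold 96 genes beside the 10. Untreated, 84 of them were measured, and 2 were higher and 5 lower at least 2-fold in Drp1LiKO, or 8.33% beside 14.4% of all genes. Mt4 is among these 5 by its measured difference, with the bound of 1.76-fold given above. With palmitate 2 were higher and 4 lower of 83, or 7.23% beside 11.5%. The median of these other genes was −0.04 untreated and −0.11 with palmitate. Genes at least 2-fold lower in both conditions were Steap1, Steap2 and Steap4, of a family that includes metalloreductases, which reduce iron and copper for uptake. Steap1 read 2.47 in control and 0.51 in Drp1LiKO untreated, and 2.48 and 0.88 with palmitate, differences of −1.96 and −1.60. Steap2 read 1.72 and −0.88 untreated and 1.64 and −0.47 with palmitate, differences of −2.60 and −2.11. Steap4 read −3.02 in untreated control cells and was too dim to be well above background in untreated Drp1LiKO cells, a fall of at least 3.74-fold. With palmitate Steap4 read −2.23 and −4.05, a difference of −1.82. Steap3, the member best known for iron uptake by red cell precursors, was named after its values were seen and differed by −0.16 and −0.04. On brightest probes, the only gene at least 2-fold higher in both conditions was Il6, given above. A dimmer Alas1 probe, given below, also passed 2-fold in both, as did the dimmer Hmox1 probe given above, on control values too dim to measure.

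**Figure D4:**
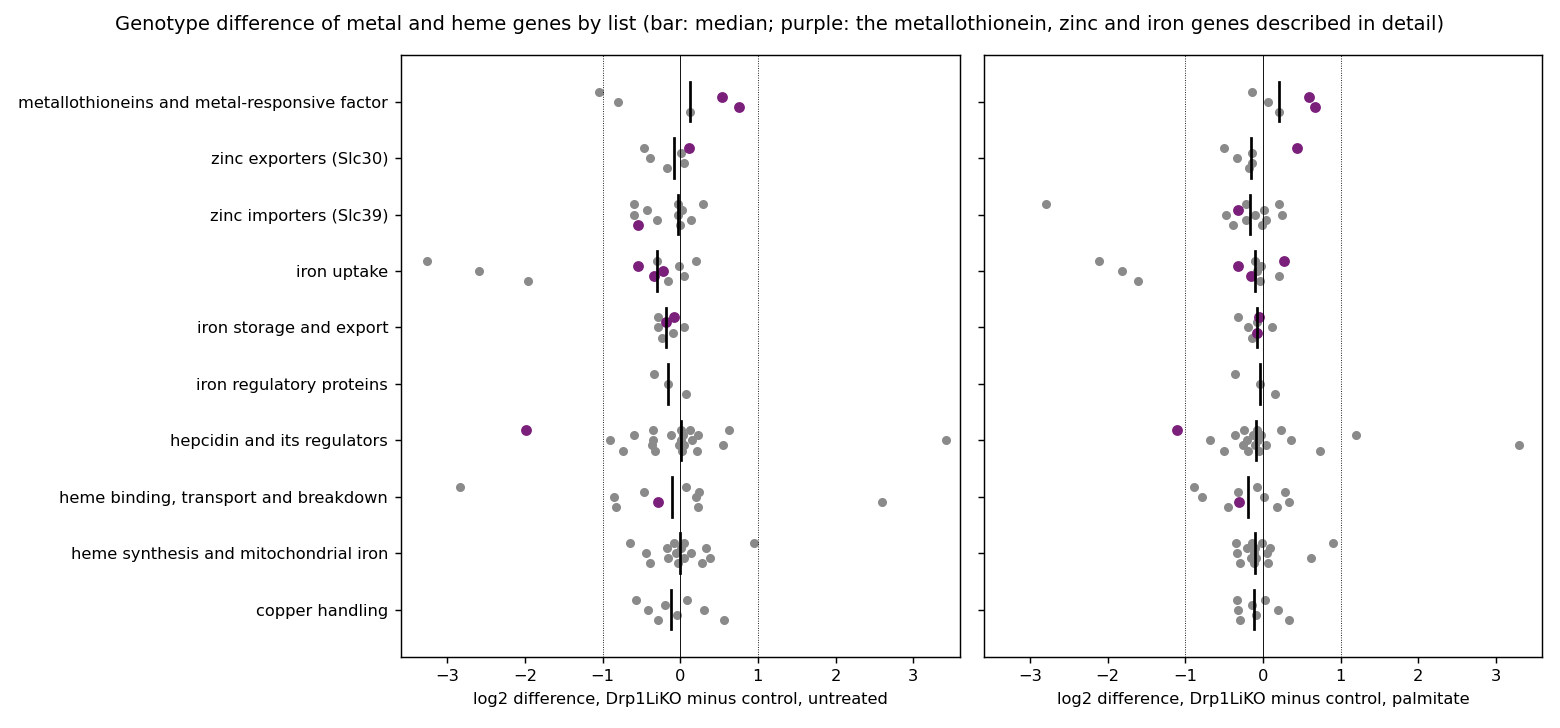
Log2 difference between Drp1LiKO and control (horizontal axis) in untreated cells on the left and with palmitate on the right, for each list of metal and heme genes (vertical axis). Each point is a gene well above background on at least 1 of the compared arrays, purple points are the 10 genes, bars are list medians and dotted lines mark 2-fold. Steap1, Steap2 and Steap4 form the left tail of iron uptake in both panels, Hamp that of hepcidin and its regulators, and the list medians lie between −0.31 and 0.20.

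On brightest probes, heme synthesis and copper handling held 0 genes past 2-fold between the genotypes in either condition, of 16 and 8 measured, and iron regulatory proteins held 0 of 3. Alas1 and Ccs were named after their values were seen. Alas1, the rate-limiting enzyme of heme synthesis, came closest at 0.96 untreated and 0.90 with palmitate, and its other probes gave 1.22 and 1.05 untreated and 0.98 and 1.12 with palmitate. A dimmer probe of Ccs, the copper chaperone of superoxide dismutase, gave −1.98 untreated and −0.33 with palmitate, beside −0.42 and −0.33 on the brightest. With palmitate against untreated, 4 of 85 other listed genes differed at least 2-fold in control cells, or 4.71%, and 7 of 82 in Drp1LiKO cells, or 8.54%. Among those measured on both arrays, Hmox1 was higher with palmitate by 1.23 in control and by 4.40 in Drp1LiKO. In Drp1LiKO cells Il6 was higher by 3.44, Socs3 by 1.42 and Mt3 by 1.29, whereas Hebp1, a heme-binding protein, was lower, with a difference of −2.65. For Hebp1 the untreated Drp1LiKO array alone stood apart, at 1.09 beside −1.52, −1.24 and −1.56 on the other arrays.

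Hamp was the only one of the 10 genes whose values spanned at least 1 log2 unit over the 4 arrays, so the genes most like it were sought. After each gene was centred on its mean over the 4 arrays, the nearest of 16610 other genes by Euclidean distance were Poc1a, Rnd1 and Espl1, at 0.078, 0.22 and 0.31 log2 units. Poc1a, a centriole protein, had genotype differences of −1.89 untreated and −1.06 with palmitate. Rnd1, a small GTPase, differed by −2.01 and −1.32, and Espl1, which encodes separase, by −1.60 and −1.13. A likeness over 4 arrays describes their values only.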

How the data were processed

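The authors amplified and labelled RNA with Cy3 by a low-input kit and hybridized it to SurePrint G3 Mouse 8x60K v2 arrays. The deposited scanner tables hold linear intensity values, written by Feature Extraction 10.7.1.1 per the file headers (9.5.1.1 per the labels), with background subtracted and no scaling between arrays. The labels and the methods name different RNA extraction kits. A further deposited table holds processed intensity values, in which the 4 columns have the same sorted values, as quantile normalization gives, and it served as an alternative.

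The deposited intensity was put on a log2 scale relative to the 75th percentile of its array, with control spots and outlier spots left out and repeat spots averaged. A change shared by most transcripts is therefore not visible. A gene was represented by its brightest probe on average among those well above background on at least 1 array, and other probes of the 10 genes are given beside it. Probe coordinates are mm9, as in the files. The 4 pairwise comparisons have no test, and the additive model was fitted with limma 3.58.1 in R 4.3.3 (two-sided, Benjamini-Hochberg adjusted over all genes, adjusted p under 0.05). For a bound, the dim array was given its lowest value among probes well above background, or the probe's own value where that was higher. Promoter windows came from RefSeq on GRCm38.p6. Tables and figures were made with Python 3.11.15, pandas 2.3.3 and matplotlib 3.10.9.

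The genes and lists were chosen with earlier results of these data known. All 10 genes are named. Other listed genes are named where both genotype comparisons differed at least 2-fold the same way, or as at most the 3 widest of a list in a palmitate comparison, among those measured on both arrays. For a gene spanning 1 log2 unit, the 3 nearest genes are named. Others are marked as named after their values were seen. Alternatives changed the normalization, background correction, probe rule, dim-probe filter, outlier flags, fold threshold and variance model. With 4 arrays in all, their number limits precision.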

Additional observations from a re-analysis of the deposited data

Results flagged for a closer look

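Tfrc, transferrin receptor 1, stood out because its brightest probe moved in opposite directions in paired comparisons. Between the genotypes it differed by −0.22 untreated and 0.27 with palmitate. Between palmitate and untreated arrays it differed by −0.11 in control, close to the spot noise figure of about 0.11, and by 0.38 in Drp1LiKO. With 1 array per group the difference between these values was not tested. The other Tfrc probe gave 0.22 and 0.02 between the genotypes and 0.06 and −0.13 for palmitate, so the probes disagreed in direction in 3 of the 4 comparisons.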

How the results depend on the processing

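With 1 array per group no replicate could be left out, and spot noise is the only error measured. No paired analysis was possible because each group has 1 array and the labels give no replicate numbers, beyond the slide, which is already a term of the additive model. At a 1.5-fold threshold the count of the 10 genes between the genotypes was 2 untreated (Mt1 and Hamp) and 3 with palmitate (Mt1, Mt2 and Hamp), beside 26.7% and 21.1% of all genes, and palmitate in Drp1LiKO gave 1 (Hamp) beside 14.1%. The other alternatives left the 2-fold counts at 1, 1, 0 and 0. In the limma model the count called by genotype was 2 with normexp background correction (Mt1 and Mt2, beside 7.28% of all genes), 3 with probes detected on every array and 6 with an intensity trend, and 0 under the other alternatives run. Of 320 recomputed differences of single genes, 266 stayed within 2 spot SDs of the value reported and 54 moved further. Many of the 266 could not move, as changing the dim-probe filter kept the same probe for each of the 10 genes. Averaging probes likewise changes nothing for a gene with a single probe, and the processed table of the authors nearly repeats the quantile run. The only differences called were those of Hamp between the genotypes, and these kept their sign. Some not called changed sign, as for Slc30a1 untreated, 0.11 in the main run and −0.07 with the array median subtracted. Subtracting the array median in place of the 75th percentile shifted the median of all genes by −0.18 untreated and −0.14 with palmitate between the genotypes. The share of 2-fold calls that were higher in untreated Drp1LiKO was then 49.8% in place of 61.2%. Mt1 ranged from 0.57 to 0.86 untreated and from 0.53 to 0.93 with palmitate, and Mt2 from 0.36 to 0.62 and from 0.45 to 0.70. Under quantile normalization the bright genes Trf, Fth1 and Hpx differed by −0.19, −0.04 and −0.14 untreated. The mean over both probes turned Slc40a1 to 0.58 untreated and 0.39 with palmitate, and Mt1 to −0.15 for palmitate in control. The percentage of all genes called was 5.28%, 3.63%, 1.67% and 2.08% with normexp, and 7.82%, 5.55%, 1.11% and 2.40% with probes well above background on both arrays. With that filter 76.5% of palmitate calls in control and 72.3% in Drp1LiKO were higher, in place of 49.6% and 55.6%. The median difference of genotype differences, 0.15, ranged from 0.12 to 0.20 under 7 alternatives chosen after seeing the data.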
